A study of Mus musculus with 12 samples.

Results

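The genes described here are 46 mouse genes of the Slit, semaphorin and netrin guidance systems, chosen by gene symbol as the ligands of these systems and the receptors that bind them. They comprise 3 Slit ligands with 4 Robo receptors, 20 semaphorins with 9 plexins and 2 neuropilins, and 2 netrins with 4 Unc5 receptors and 2 receptors of the DCC family. All 46 were found on the array, on 59 of its 39429 probes, among 20144 genes in all. The choice did not use measured values, although results of these arrays were known when it was made. Where a gene had several probes, as 12 had, its brightest probe on average was used.

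Guidance cues were first described as molecules that attract or repel growing axons, and the same cues act on migrating cells, vessels and bone. Slits are secreted and bind Robo receptors, and semaphorins signal through plexins, with neuropilins as co-receptors for the secreted class 3. Netrins bind Dcc and neogenin as well as the Unc5 receptors, which turn attraction into repulsion. In bone, Sema3a and Sema4d are known for signals between osteoblasts, which form bone, and osteoclasts, which resorb it.

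Gene expression was measured in 2 mouse osteosarcoma cell lines on Agilent arrays with 1 colour. Dunn is an osteoblastic line of low metastatic potential, and LM8 was derived from it by selection in animals for metastasis to the lung. The question was which genes differ between the lines irrespective of passage, and which move with passage in either line. Dunn cells were analysed at passage 25 (early) and passage 86 (late), and LM8 cells at passage 24 (early) and passage 91 (late), with 3 arrays per group. All cells were grown without any agent in the same medium with fetal calf serum, and the frozen early and late stocks were thawed and passaged further before RNA was taken. Each line is 1 lineage of cells, so a difference between the lines has no replicate at the level of the line. No source says that the 3 arrays of a group came from separate cultures, and p-values measure the spread between these arrays only.

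The arrays lay on 3 slides, each with 1 array of every group at a fixed position, so that position and group cannot be told apart. A probe was counted as detected in a group when the scanner software called it well above background on every usable array of that group, of which at least 2 were required. Between 38.97% and 59.6% of probes were well above background on an array, with the lowest shares on the early Dunn arrays. The 75th percentile of the signal, by which each array was scaled, ran from 253.1 to 521.6 in early Dunn, 609.1 to 840.4 in late Dunn, 788.2 to 1148 in early LM8 and 1033 to 1699 in late LM8. Late Dunn replicate 1 stood apart from its group, with correlations across probes down to 0.9189, and values without it are given where a result rests on it. Of 9 osteoblast markers measured, 7 to 8 were detected in every group, among them Runx2, Sp7, Alpl and Ibsp. With passages pooled, 1 detected osteoblast marker, Alpl, was over 2-fold higher in LM8 than in Dunn at an adjusted p under 0.05 (limma), and 0 were lower. In early LM8, 2 markers were over 2-fold lower than in early Dunn and 2 than in late Dunn at an unadjusted p under 0.05, 0 at an adjusted p (limma). Scaled means of Ibsp were 4.68 in early Dunn, 4.42 in late Dunn, 3.42 in early LM8 and 4.02 in late LM8. Those of Spp1 were 3.93, 4.24, 2.73 and 3.52, with 2 usable arrays in each Dunn group. Postn was well above background on no array. Scaled means of Alpl were 0.81 for early Dunn (2 usable arrays), 1.00 for late Dunn, 1.48 for early LM8 and 2.40 for late LM8. Its arrays overlapped between the lines, with Dunn reaching 1.59 and LM8 starting at 0.81. Markers of other cells were detected in small numbers in each group, with 1 to 2 of 6 neuronal, 0 to 1 of 4 glial, 1 to 2 of 5 endothelial, 2 to 4 of 6 leucocyte and 0 of 4 epithelial genes. Of these, Tubb3, a neuronal tubulin, was higher in LM8 than in Dunn (log2 difference 1.77 ± 0.32 SE, adjusted p = 0.00348, limma) and Lyz2, a macrophage gene, was lower (-2.23 ± 0.70, adjusted p = 0.0289, limma), and their part in the results was not tested. The summed scaled signal of the neuronal list was 4.69 to 14.6 on Dunn arrays and 3.72 to 6.22 on LM8 arrays, and that of the leucocyte list 0.491 to 1.11 and 0.493 to 1.10. The neuronal markers Syt1, Rbfox3, Stmn2 and Nefl and the leucocyte marker Ptprc were not detected in any group. In such bulk samples, fewer cells with a transcript and less transcript per cell cannot be told apart.

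Detection of the guidance genes differed between the groups. Of the 46 genes, 15 (32.6%) were detected in all 4 groups, against 46.5% of all genes, and 35 (76.1%) in at least 1 group, against 62.8% of all genes. Detection was lowest in early Dunn cells, where 16 of the genes passed, and reached 28 in late Dunn, 31 in early LM8 and 32 in late LM8. The share of all probes well above background was lowest there too, at 38.97% to 49.02% on early Dunn arrays and 52.38% to 59.6% on the others. Whether the lower counts in early Dunn are particular to the guidance genes was not tested. The 11 genes detected in no group were Slit1, Robo1, Robo4, Sema3c, Sema3e, Sema5b, Plxna4, Plxnb3, Ntn1, Ntn4 and Unc5d. Ligands and receptors of every family were among the genes detected, except that neither netrin of the list, Ntn1 nor Ntn4, passed in any group.

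Between the lines, with passages pooled (6 arrays each), 15 of 46 guidance genes differed by more than 2-fold with an unadjusted p below 0.05 and were detected on the higher side, where 11.7% of all genes did so. A gene that met these conditions is described as called. Robo2, Robo3, Sema3a, Sema4a, Sema4g, Sema5a, Sema7a, Nrp1 and Unc5a were the 9 genes higher in LM8 (4.93% of all genes), and Slit3, Sema3d, Plxna2, Plxnb1, Unc5c and Neo1 the 6 genes lower (6.74% of all genes), although Robo2, Sema4a, Sema4g and Sema7a turned to lower after normexp background correction and Neo1 to higher without scaling. At an adjusted p under 0.05 (limma, Benjamini-Hochberg over all probes), 14 of the 15 were called, all but Sema3a, against 10.7% of all genes. The median log2 difference was -0.19 over the guidance genes and -0.68 over all genes. Without any scaling between arrays 23 guidance genes were called higher and 2 lower, where 27.8% of all genes were called in either direction. After normexp correction 2 were higher and 5 lower, where 9.17% of all genes were called. Genes detected in all 4 groups shifted by a median of -0.36 in the scaled values and by 0.83 without scaling.

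When LM8 was set against Dunn separately for each pair of passages, 5 of 45 genes tested were called in the same direction in all 4 comparisons, against 3.53% of all genes. Slit3 and Plxna2 were lower in LM8 (2.06% of all genes) and Sema5a, Nrp1 and Unc5a were higher (1.47%). Slit3, Plxna2 and Sema5a met an adjusted p under 0.05 in each of the 4 (limma), as did 1.32% of all genes, but none did with the slide as a block. Singly, 14 of 45 genes were called in early LM8 against early Dunn (12.5% of all genes), 9 of 46 in early LM8 against late Dunn (7.73%), 15 of 45 in late LM8 against early Dunn (18.8%) and 8 of 46 in late LM8 against late Dunn (10.2%). The 4 comparisons share their arrays with one another and with the pooled comparison, each group entering 2 of them, and are no separate tests. The plot shows these 5 genes by array. As they were chosen on these same arrays, the separation of the lines in it is no further evidence.

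**Figure D1:**
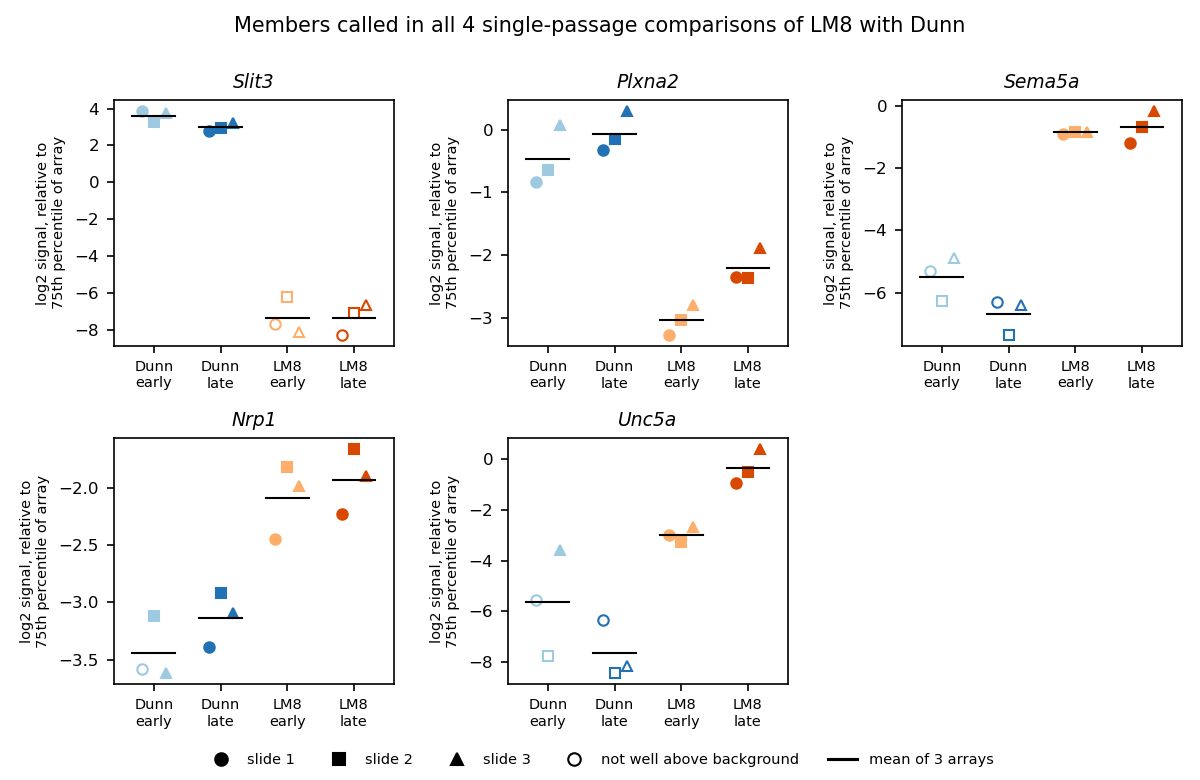
Log2 signal relative to the 75th percentile of the array (vertical axis) in early and late Dunn and LM8 cells for Slit3, Plxna2, Sema5a, Nrp1 and Unc5a. Each point is 1 array, its shape gives the slide, open points were not well above background and bars are means of 3 arrays. For each gene the 6 LM8 arrays lie apart from the 6 Dunn arrays.

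Slit3, a secreted ligand of Robo receptors, was bright in Dunn cells and not well above background on any LM8 array. Its log2 signal, scaled to the array's 75th percentile, was 3.85, 3.26 and 3.73 in early Dunn and 2.78, 2.96 and 3.19 in late Dunn. It was -7.71, -6.25 and -8.13 in early LM8 and -8.27, -7.13 and -6.66 in late LM8. Before scaling, these were signals of 3357 to 6560 on Dunn arrays and 3.34 to 15.1 on LM8 arrays. All Dunn arrays were far above all LM8 arrays, at both passages. As the dim side gives a bound only, Slit3 was at least 897-fold lower in LM8 (adjusted p = 3.92e-09, limma), and at least 637-fold to at least 1264-fold lower in the single-passage comparisons. Such bounds set the mean of the bright group against the lowest signal called well above background on each dim array, or the dim probe's own signal where that was higher. They hold for the scaled signals, and after normexp correction with its added offset the log2 difference of Slit3 was -6.67, smaller than the bound.

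Upstream regions were taken for the genes that met an adjusted p under 0.05 (limma) in all 4 comparisons, Slit3, Plxna2 and Sema5a. For Plxna2 no window wholly before its annotated start was available. Slit3 and Sema5a were detected in 1 line only, in opposite lines. The region upstream of Slit3 is shown here, and that of Sema5a further below. The 250 bases before the annotated start, from RefSeq (GRCm38.p6, chr11:35121206-35121455, plus strand), are given with the GC box GGGCGG in capitals on either strand, where the reverse strand reads CCGCCC. The GC box is the motif known for binding Sp family factors.
Slit3: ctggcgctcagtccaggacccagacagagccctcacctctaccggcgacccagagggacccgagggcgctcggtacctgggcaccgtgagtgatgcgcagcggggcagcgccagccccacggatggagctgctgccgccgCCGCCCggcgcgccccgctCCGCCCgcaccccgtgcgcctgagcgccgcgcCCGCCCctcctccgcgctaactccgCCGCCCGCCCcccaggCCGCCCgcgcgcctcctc
This window held 6 GC boxes, overlapping ones included, and 35 CpG dinucleotides, and 78.8% of its bases were G or C. Over 32851 windows of the same length upstream of mouse genes, 32.7% held a GC box, the median number of CpG dinucleotides was 6 and the median share of G and C was 52.4%. The letters TATAAA, found in 12.4% of these windows on either strand, were not in it. These arrays measured neither methylation nor binding there.

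Of the other Slits, Slit2 was detected in all groups and did not differ beyond its spread, between -3.77 and -1.28 on all arrays (log2 difference 0.30, 95% confidence interval -0.58 to 1.17). Slit1 was well above background on 1 array of 12. Among the Robo receptors, Robo2 and Robo3 were called higher in LM8, whereas Robo1 and Robo4 were not detected in any group. Robo2 ran from -3.25 to -2.35 on the LM8 arrays and from -7.54 to -2.33 on the Dunn arrays, where only late Dunn replicate 1, the array that stood apart, was well above background. This array was as bright as the LM8 arrays, and the groups overlapped through it alone. The log2 difference of Robo2 was 2.69 ± 0.78 (SE, adjusted p = 0.0272, limma), 3.31 without that array, and 0.20, 4.23 and 3.65 on the 3 slides, and -0.06 after normexp correction. A second Robo2 probe gave 2.86 ± 0.57 (adjusted p = 0.00595, limma). Robo3, which differed by 1.73 ± 0.36 (adjusted p = 0.00783, limma), was again brightest in Dunn on late replicate 1, at -2.77. It gave 2.02 without that array, but 0.10 after normexp correction (adjusted p = 0.820, limma), where it was not called. Both genes were called in LM8 against early Dunn at either LM8 passage, and without late Dunn replicate 1 they joined the genes called in all 4 comparisons.

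**Figure D2:**
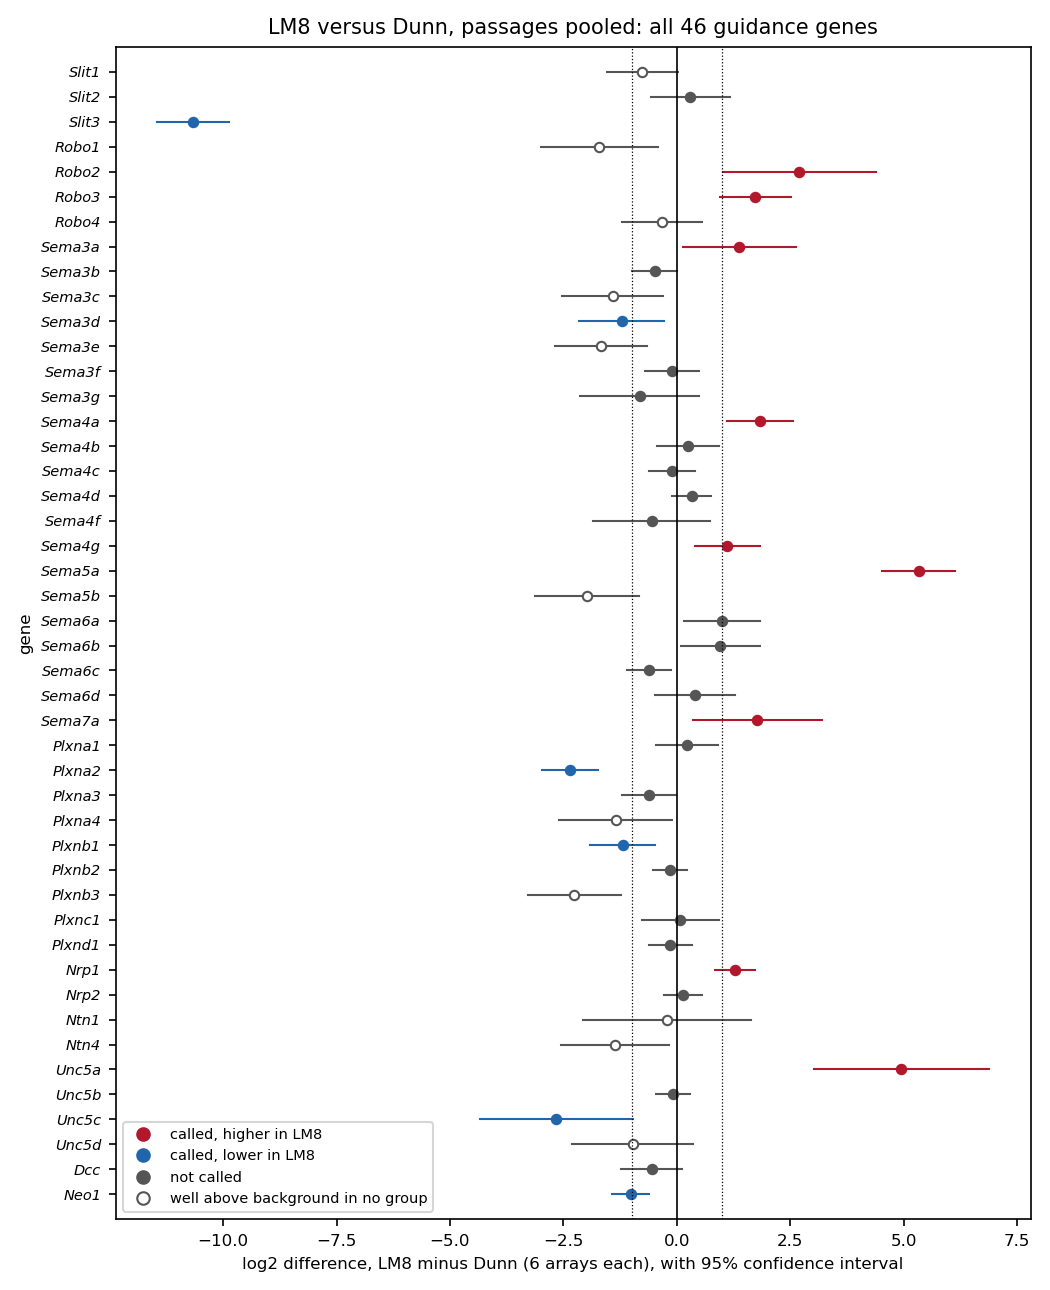
Log2 difference between LM8 and Dunn with passages pooled (horizontal axis, LM8 minus Dunn, 6 arrays each, lines are 95% confidence intervals) for the 46 guidance genes (vertical axis). Red and blue points are the 9 genes called higher and the 6 called lower in LM8 (without scaling or after normexp correction 5 of these change sign), open points are genes detected in no group, and dotted lines mark a 2-fold change. Slit3 and Sema5a lie farthest from 0 on either side, with positions that rest on signals not above background in 1 line.

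Among the semaphorins, 5 of 20 were called higher in LM8 and 1 lower, beside 4.93% and 6.74% of all genes. Sema5a, a transmembrane semaphorin with thrombospondin repeats, was the reverse of Slit3, detected on every LM8 array and on no Dunn array. It lay at -5.29, -6.27 and -4.90 in early Dunn and at -6.32, -7.35 and -6.39 in late Dunn. In LM8 it was -0.88, -0.81 and -0.84 at early and -1.18, -0.67 and -0.16 at late passage. The lines did not overlap, and the change with passage within LM8 was 0.17 ± 0.28 (SE). Sema5a was at least 19.2-fold higher in LM8 (adjusted p = 2.31e-06, limma), and at least 13.1-fold to at least 28.0-fold higher in the single-passage comparisons. After normexp correction the log2 difference was 1.97 (adjusted p = 0.00880, limma), smaller than the bound, and Sema5a left the genes called in all 4 comparisons.

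The 250 bases upstream of Sema5a (RefSeq, GRCm38.p6, chr15:32244563-32244812, plus strand) are given in the same way, with GC boxes of either strand in capitals.
Sema5a: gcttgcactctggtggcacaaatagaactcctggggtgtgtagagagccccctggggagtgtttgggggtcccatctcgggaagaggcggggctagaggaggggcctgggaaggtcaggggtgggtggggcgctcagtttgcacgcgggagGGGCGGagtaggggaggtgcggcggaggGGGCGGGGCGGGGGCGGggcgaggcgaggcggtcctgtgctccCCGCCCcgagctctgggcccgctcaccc
This window held 5 GC boxes, overlapping ones included, and 17 CpG dinucleotides, 72.0% of its bases were G or C, and it did not hold TATAAA. These matches are a description of letters and not of sites.

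The other semaphorins called between the lines had smaller differences and low signals. Sema4a differed by 1.83 ± 0.33 (SE, adjusted p = 0.00357, limma, -0.09 after normexp correction), with no overlap between the LM8 arrays, at -3.35 to -2.60, and the Dunn arrays, at -5.93 to -3.67. Sema4g differed by 1.11 ± 0.33 (adjusted p = 0.0282, limma, -0.62 after normexp correction) and overlapped. On 3 of 6 Dunn arrays it was not well above background, and it was not called with a floor on dim signals (0.70) or without late Dunn replicate 2 (0.97). Sema4a is a transmembrane semaphorin known from immune cells. Sema7a, the membrane-anchored semaphorin, differed by 1.77 ± 0.66 (adjusted p = 0.0450, limma, -0.34 after normexp correction), but in Dunn only late replicate 2, at -3.50, was well above background, and with a floor on dim signals the difference was 0.61 and not called. Sema3a, a secreted repellent of axons, differed by 1.38 ± 0.57 (adjusted p = 0.0645, limma), and by 0.23 after normexp correction, where it was not called. Early Dunn replicate 1 was its dimmest array, at -5.55, and without it the difference was 0.87 and not called. A second Sema3a probe, detected on all arrays, gave -0.21 ± 0.24 (adjusted p = 0.460, limma), so the 2 probes disagreed. Sema3d was the only semaphorin called lower, by -1.22 ± 0.44 (adjusted p = 0.0402, limma), and -0.03 without scaling. Early Dunn replicate 3, at -0.39, and late Dunn replicate 3, at -0.95, were the bright arrays of Sema3d, and without the former the difference was -0.92 and not called.

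Of the plexins, which carry the semaphorin signal into the cell, 2 of 9 were called lower in LM8 and 0 higher in the scaled values. Of all genes, 6.74% were called lower and 4.93% higher. Without scaling 4 plexins were called higher and Plxna2 lower, where 27.8% of all genes were called in either direction. Plxna2, a receptor of class 6 semaphorins and with neuropilins of class 3, was well above background on all 12 arrays. It was -0.84, -0.65 and 0.07 in early Dunn and -0.33, -0.15 and 0.30 in late Dunn. In LM8 it was -3.27, -3.04 and -2.79 at early and -2.35, -2.37 and -1.89 at late passage. Each LM8 array was below each Dunn array, and late LM8 lay above early LM8 by less than 2-fold (0.83 ± 0.23, adjusted p = 0.186, limma). Plxna2 was 5.11-fold lower in LM8 (log2 difference -2.35 ± 0.28, SE, adjusted p = 2.13e-04, limma), with -2.23, -2.31 and -2.52 on the 3 slides, and -1.16 without scaling. Without scaling its adjusted p was 0.0742 (limma), and it left the genes called in all 4 comparisons. The single-passage differences ran from -2.97 to -1.73. Plxnb1, a receptor of Sema4d, differed by -1.19 ± 0.33 (adjusted p = 0.0252, limma), was brightest in early Dunn (-0.12 to 1.23), and was not called without scaling (-0.0029), after normexp correction (-0.83) or without early Dunn replicate 3 (-0.97).

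The neuropilins, co-receptors of class 3 semaphorins and of vascular endothelial growth factor, went apart. Nrp1 was -3.58, -3.12 and -3.61 in early Dunn and -3.39, -2.91 and -3.09 in late Dunn. In LM8 it was -2.45, -1.83 and -1.99 at early and -2.23, -1.67 and -1.90 at late passage. All LM8 arrays were above all Dunn arrays, 5 of which were well above background, and the difference was 2.42-fold (log2 difference 1.27 ± 0.20, SE, adjusted p = 0.00158, limma), with 0.25 after normexp correction. Its single-passage differences were 1.04 or more, the lowest near the 2-fold limit, and it left the genes called in all 4 comparisons without late Dunn replicate 1, early LM8 replicate 2 or early LM8 replicate 3. Nrp1 also left them under quantile normalization and after normexp correction. Nrp2 was among the brightest probes of the list, at 5.06 to 6.04, and its difference between the lines was 0.13 (95% confidence interval -0.29 to 0.56).

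Of the netrin receptors, 1 of 4 Unc5 genes was called higher in LM8 and 1 lower, and Neo1 was lower, beside 4.93% of all genes higher and 6.74% lower. Unc5a, a receptor for the repellent action of netrins, was -5.55, -7.76 and -3.58 in early Dunn and -6.33, -8.40 and -8.13 in late Dunn, with 1 of these 6 arrays, early replicate 3, well above background. It was -3.00, -3.28 and -2.68 in early LM8 and -0.96, -0.54 and 0.37 in late LM8. The order of the groups was late LM8 above early LM8 above Dunn, with early Dunn replicate 3 nearest to early LM8. Between the lines, the difference of Unc5a was called (adjusted p = 0.00331, limma), but its size rests on Dunn signals mostly not above background. It was 4.94 on the log2 scale as measured, 3.18 with a floor on dim signals and 1.36 after normexp correction (adjusted p = 0.0523, limma). Unc5a left the genes called in all 4 comparisons with this floor, after normexp correction, under the methods' t-test, and without any 1 of the early LM8 arrays. Against late Dunn, where no array was well above background, it was at least 5.62-fold higher in early and at least 34.3-fold higher in late LM8.

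Unc5c went the other way. It lay at -4.99, -5.39 and -5.04 in early Dunn and -2.19, -3.75 and -3.89 in late Dunn, and at -7.91, -6.93 and -8.35 in early LM8 and -5.08, -4.49 and -8.44 in late LM8. It was well above background on all late Dunn arrays and on 2 late LM8 arrays, which overlapped with early Dunn. The difference between the lines was -2.66 ± 0.78 (SE, adjusted p = 0.0282, limma), and -1.47 without scaling, where it was not called. A second Unc5c probe was dim on all LM8 arrays and gave at least 5.42-fold lower in LM8 (adjusted p = 8.45e-06, limma), so the probes differed in late LM8. Neo1, which encodes neogenin, was well above background on all arrays, at 0.62 to 1.28 in Dunn and -0.26 to 0.32 in LM8. These ranges did not overlap, and Neo1 was 2.03-fold lower (-1.02 ± 0.19, adjusted p = 0.00356, limma), a difference of -0.66 relative to the shift of detected genes and of 0.17 without scaling. On the same basis Plxnb1 differed by -0.83 and Sema3d by -0.86, while the larger differences of Slit3, Plxna2, Sema5a, Unc5a and Nrp1 stayed over 2-fold.

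With passage, 2 of 45 guidance genes were called in Dunn cells (3.93% of all genes) and 3 of 46 in LM8 cells (4.28%). The median change of the guidance genes was -0.04 in Dunn and 0.02 in LM8, beside -0.36 and -0.20 over all genes. Both genes in Dunn, Sema6a and Unc5c, were higher at late passage (1.17% of all genes). In Dunn cells none met an adjusted p under 0.05 (limma), as for all but 0.00501% of all genes. Sema6a, a transmembrane ligand of A-type plexins, was -1.15, -0.73 and -0.02 in early Dunn and 0.77, 0.66 and 1.08 in late Dunn. All late arrays were above all early ones, and the change was 1.47 ± 0.40 (SE, adjusted p = 0.674, limma). In LM8 it was 1.30, 0.88 and 1.68 at early and 0.78, 1.27 and 0.65 at late passage, the level of late Dunn. Accordingly Sema6a was called higher in LM8 against early Dunn only (1.92 for early and 1.53 for late LM8), and not against late Dunn (0.45 and 0.07).

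Unc5c was the other gene called in Dunn, at least 2.21-fold higher at late passage (adjusted p = 0.727, limma), and 3 late arrays were above the 3 early ones, none of which was well above background. Its second probe changed in the same direction, by 1.42 ± 0.35 (SE, adjusted p = 0.596, limma), but after normexp correction the first gave -0.48, and with a floor on dim signals 1.14, which was not called. With the slide as a block, 5 guidance genes were called in Dunn (4.58% of all genes), as Sema3a and Sema3g were called higher and Plxnb1 lower besides. Without early Dunn replicate 2 there were 4 (5.11% of all genes), Sema3a and Plxnb1 added. In both settings 0 guidance genes met an adjusted p under 0.05 (limma).

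**Figure D3:**
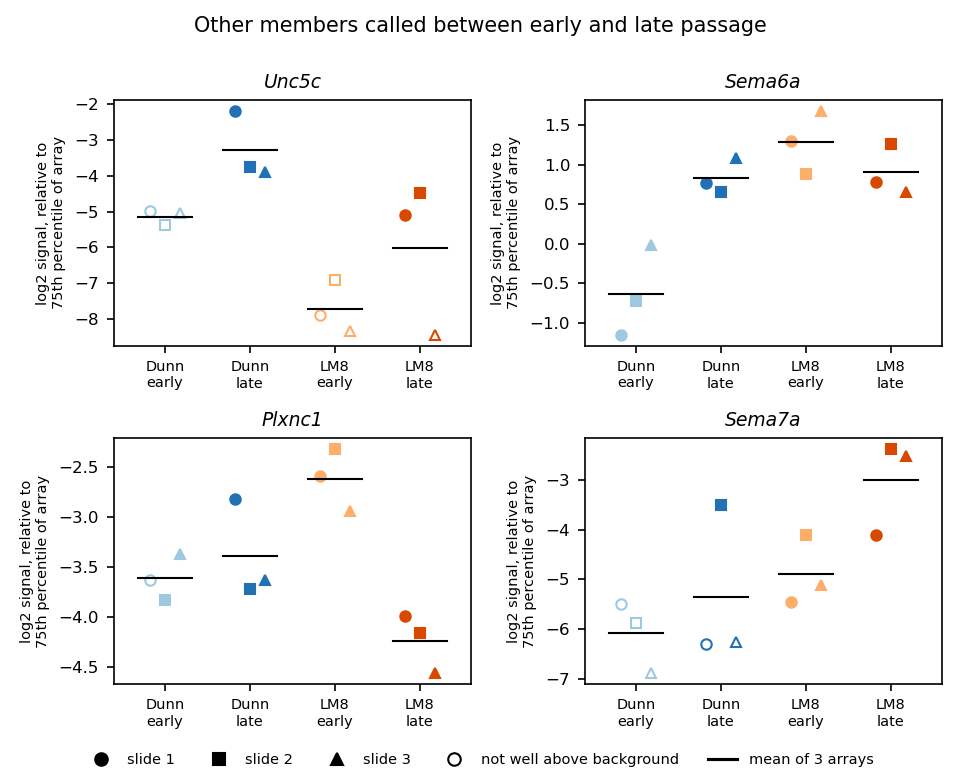
Log2 signal relative to the 75th percentile of the array (vertical axis) in the 4 groups for Unc5c, Sema6a, Plxnc1 and Sema7a, the genes called with passage besides Unc5a. Each point is 1 array, its shape gives the slide, open points were not well above background and bars are means of 3 arrays. Sema6a and Unc5c were higher in late than in early Dunn (Unc5c turned to lower after normexp correction), Plxnc1 was lower in late than in early LM8, and the Sema7a arrays of the LM8 passages overlapped.

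In LM8 cells Unc5a and Sema7a were called higher (1.96% of all genes) and Plxnc1 lower (2.32%) at late passage, and Unc5a and Plxnc1 met an adjusted p under 0.05 (2.41% of all genes). Unc5a, whose values are given above, changed by 2.61 ± 0.37 (SE, adjusted p = 0.0178, limma), and by 2.04, 2.74 and 3.05 on the 3 slides. Its adjusted p was 0.136 by the methods' t-test, and by limma 0.544 in 1 fit over all arrays and 0.00174 after normexp correction. Plxnc1, the receptor of Sema7a, was -2.59, -2.33 and -2.95 in early and -3.99, -4.16 and -4.55 in late LM8. These arrays did not overlap, and the change was -1.61 ± 0.25 (adjusted p = 0.0278, limma), but -0.88 after normexp correction (adjusted p = 0.152, limma), where it was not called. The adjusted p of Plxnc1 was 0.122 by the methods' t-test, and by limma 0.256 without scaling and 0.0412 in 1 fit over all arrays. In Dunn it was -3.63, -3.83 and -3.37 at early and -2.82, -3.71 and -3.63 at late passage. Late Dunn replicate 1 lay within the range of early LM8, and the other Dunn arrays lay between the LM8 groups. A second Plxnc1 probe was at least 3.01-fold lower at late passage in LM8 (adjusted p = 0.0165, limma).

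Sema7a, the ligand of Plxnc1, was -5.46, -4.10 and -5.12 in early and -4.11, -2.38 and -2.52 in late LM8. The passages overlapped through late replicate 1 and early replicate 2, and the change was 1.89 ± 0.55 (SE, adjusted p = 0.205, limma). It was not called after normexp correction (0.92) or under the methods' t-test. In Dunn it was -5.50, -5.88 and -6.88 at early and -6.30, -3.50 and -6.26 at late passage, with 1 of these arrays well above background. In LM8 cells at late passage the ligand was called higher and its receptor lower. The number at an adjusted p under 0.05 was 0 without early LM8 replicate 1, early LM8 replicate 2 or late LM8 replicate 2, 1 without late LM8 replicate 1 or 3, and 1 with the slide as a block.

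**Figure D4:**
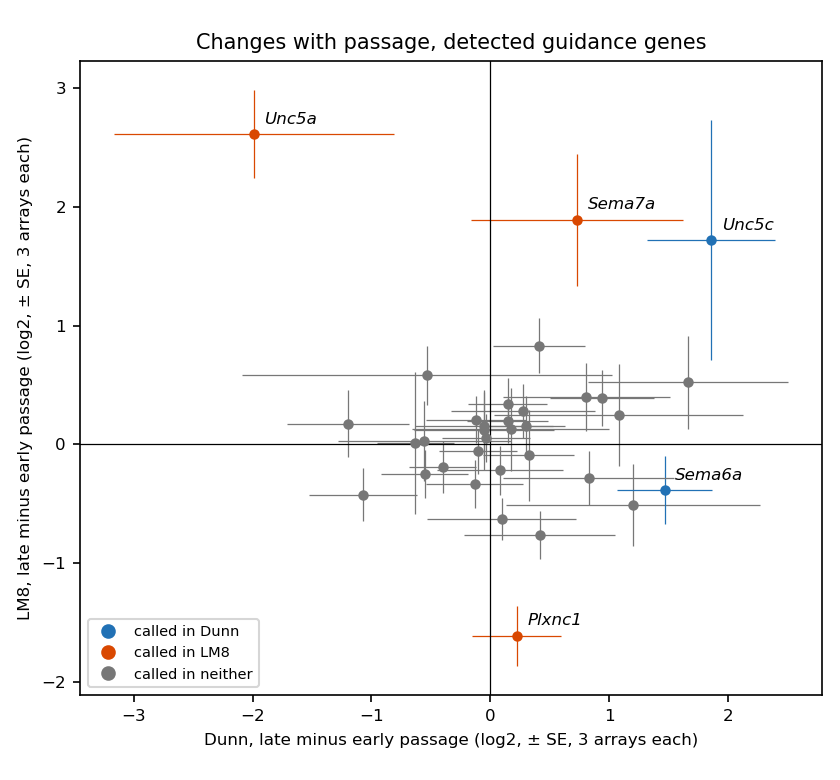
Log2 change from early to late passage in Dunn (horizontal axis) and LM8 (vertical axis), with standard errors, for the 34 guidance genes that were detected in at least 1 group and tested in both lines. Blue and orange points are the genes called in Dunn and in LM8, and most of the others lie within a 2-fold change in both lines.

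The plot of the changes with passage in both lines shows no gene called in both. A change with passage that differed between the lines was tested as the interaction of line and passage, and 0 of 45 guidance genes met an adjusted p under 0.05 (limma), against 0.616% of all genes, and 5 had an unadjusted p under 0.05 (6.71% of all genes), namely Unc5a, Plxnc1, Sema6a, Sema5a and Slit1. Of these, Slit1 was detected in no group and Sema5a was above background on no Dunn array. The differences, LM8 minus Dunn, were 4.60 ± 1.31 for Unc5a (SE, unadjusted p = 0.00568, adjusted p = 0.343), -1.83 ± 0.44 for Plxnc1 (unadjusted p = 0.00186, adjusted p = 0.184) and -1.85 ± 0.49 for Sema6a (unadjusted p = 0.00344, adjusted p = 0.255), all by limma. When only probes detected in at least 1 group were tested, Plxnc1 passed. For Unc5a the Dunn side was mostly not above background and the value is no measure of size.

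Several receptors and ligands were bright in all groups and differed little. Plxnb2, a receptor of class 4 semaphorins, lay at 5.03 to 5.53 on the 11 arrays without an outlier flag, and its difference between the lines was -0.16 (95% confidence interval -0.53 to 0.21). The interval was -0.45 to 0.30 for Unc5b, -0.62 to 0.34 for Plxnd1, -0.10 to 0.76 for Sema4d, and -0.61 to 0.40 for Sema4c, whose spots were flagged on 3 Dunn arrays, so that it was not tested between Dunn passages. Each of these intervals excludes a 2-fold difference in the scaled values. Sema3b, a secreted semaphorin, lay at 2.69 to 4.32 with an interval of -0.99 to 0.01. Without scaling Nrp2, Plxnb2, Plxnd1, Sema4c, Sema4d and Unc5b were called higher in LM8 with the general shift of 0.83. These unscaled values include the flagged spots, such as those of Sema4c. Dcc, the netrin receptor of attraction, was bright on 1 probe (3.59 to 5.81), without a called difference (-0.56, 95% confidence interval -1.23 to 0.11), whereas its other 2 probes to the same transcript were well above background on 1 and 2 arrays of 12, so its level is uncertain. Sema6d likewise had a probe detected in 3 groups that differed by 0.40 ± 0.41 and a dim one, not above background on any array, that gave -2.32 ± 0.42.

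The 11 genes detected in no group had scaled differences between the lines of -2.26 (Plxnb3) to -0.22 (Ntn1), and all 11 were negative. These values are of signals near background divided by a 75th percentile that was higher on LM8 arrays, and no order of levels was read from them. Ntn1, the first netrin described, was well above background on its brighter probe on 1 early Dunn and 2 early LM8 arrays, and on no late array.

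Further guidance ligands and receptors, outside the Slit, semaphorin and netrin genes above, were called in small numbers between the lines, 2 of 28 higher and 2 lower (4.93% and 6.74% of all genes), with a median of -0.72 beside -0.68 over all genes. Ntn5 and Ntn3, further netrins, were higher in LM8, by 2.74 ± 0.53 (SE, adjusted p = 0.00495, limma) and 1.25 ± 0.21 (adjusted p = 0.00226, limma). Flrt3, a ligand of Unc5 receptors, was lower by -2.69 ± 0.78 (adjusted p = 0.0279, limma) and Pgf, a ligand of neuropilin, by -1.11 ± 0.27 (adjusted p = 0.0149, limma). Ntn5 was well above background on 2 late Dunn arrays and no early Dunn array, and Flrt3 on no early LM8 array. The sizes of these line differences of Ntn5 and Flrt3 are therefore uncertain, and early Dunn and late LM8 overlapped for Flrt3. Flrt3 was also at least 4.48-fold higher in late than in early LM8 (adjusted p = 0.00521, limma), and was called higher at late passage in Dunn as well (2.97 ± 0.38, adjusted p = 0.226, limma).

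Of 49 cytoplasmic effectors of guidance receptors, 1 was called higher and 5 lower in LM8 (4.93% and 6.74% of all genes), with a median of -0.24 beside -0.68 over all genes. Pak1, a kinase activated by Rac and Cdc42, was lower on each LM8 array than on each Dunn array and differed by -4.05 ± 0.28 (SE, adjusted p = 2.08e-06, limma). Ptk2, the focal adhesion kinase, differed by -1.26 ± 0.17 (adjusted p = 5.08e-04, limma), also without overlap. Src and Myo10 were lower by -2.68 ± 0.65 (adjusted p = 0.0158, limma) and -1.32 ± 0.34 (adjusted p = 0.0198, limma), and Arhgef11, an exchange factor that binds B-type plexins, was higher by 2.68 ± 0.65 (adjusted p = 0.0158, limma), the last 3 with overlapping arrays. Src was well above background on 2 of 6 LM8 arrays, so that the size of its difference is uncertain, and Arhgef11 on 3 of 6 Dunn arrays. None of the 49 was called with passage in LM8 (4.28% of all genes) and 1 was lower in Dunn (3.93% of all genes in either direction).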

How the data were processed

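RNA of Dunn and LM8 cells was hybridised to 12 Agilent mouse arrays. The authors deposited the output of Agilent Feature Extraction 10.7.3 for each array, whose processed signal is a spot's intensity after subtraction of background, without scaling between arrays. Their table of all arrays holds the same intensity, rounded (largest relative difference 0.00497). For early Dunn replicate 1 the difference was 0, as its own file held rounded signals, unlike the files of the other arrays. Why this file differed was not settled. The study gives TriReagent and the labels RNeasy for RNA extraction. Names came from RefSeq (GRCm38.p6) through the probes' accessions, which matched 26581 of 39429 probes (67.4%). The files' headers name mm9, so no gene coordinates are given, and upstream windows carry the build of RefSeq's table, which held 37 of the 46 genes.

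Control spots were left out, and so were spots with outlier flags, except in the table without scaling, where flagged spots were kept. Log2 signals minus each array's 75th percentile were averaged per probe and compared by limma 3.58.1 (lmFit, eBayes) in R 4.3.3 with the data.table package (version 1.17.8), on the groups compared only, as in the study's methods. P-values were adjusted by Benjamini-Hochberg over all probes. For each gene the probe with the highest mean was used, if at least 2 arrays per side were usable. The members and lists were chosen with earlier results of these data known. Values on every array were given for genes called in all 4 line comparisons or with passage, or different by the interaction, and genes of other lists were named at an adjusted p under 0.05, up to 5 a list by size. The steps were tested on simulated data. Python 3.11.15, pandas 2.3.3 and matplotlib 3.10.9 were used for reading tables and drawing plots.

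Replicate numbers mark the slide. Deviations of the 18 pairs of arrays on a slide correlated from -0.23 to 0.68, over 0.1 in 12, and the slide as a block was an alternative. Other alternatives were quantile normalization, normexp (offset 50, on median signals, as the files hold no mean signals), the table without scaling, a floor on dim signals, filters on background, any probe of a gene, 1 fit over all arrays, the methods' t-test and leaving out each replicate. Leaving out slide 1 was added after seeing the data. The number of arrays limits the precision.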

Additional observations from a re-analysis of the deposited data

How the results depend on the processing

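The number of guidance genes called, 2 with passage in Dunn, 3 with passage in LM8, 15 between the lines, 5 in all 4 single-passage comparisons and 0 by the interaction, changed with the treatment of dim signals and with scaling. After normexp correction the numbers were 1, 1, 7, 2 and 0, beside 2.58%, 2.1%, 9.17%, 2.2% and 0.15% of all genes. Without scaling they were 7, 4, 25, 7 and 0, beside 7.26%, 5.26%, 27.8%, 6.06% and 0.318% of all genes. A floor on dim signals gave 1 in Dunn (3.69% of all genes). No condition on background gave 5 with passage in LM8 (7.38% of all genes) and 22 between the lines (38.4%). Testing only probes well above background gave 1 by the interaction (2.36%). With the slide as a replicate block the numbers were 5, 3, 15, 5 and 0, beside 4.58%, 4.44%, 11.8%, 3.66% and 0.501% of all genes. The number at an adjusted p under 0.05 in all 4 comparisons then fell from 3 to 0. Leaving out 1 replicate at a time gave 2 to 4 in Dunn, 3 to 4 in LM8, 11 to 17 between the lines, 3 to 7 in all 4 comparisons (3 without early LM8 replicate 2 or 3, 7 without late Dunn replicate 1) and 0 by the interaction. The shares of all genes then ran from 2.67% to 5.11%, 3.92% to 5.09%, 10.1% to 13.9%, 3.05% to 4.09% and 0.237% to 1.11%. At an adjusted p under 0.05 the 14 genes between the lines became 7 without late LM8 replicate 3, 8 without late LM8 replicate 2, and 9 without early LM8 replicate 3 or early Dunn replicate 3. Without slide 1 the numbers were 3, 4, 16, 7 and 0, beside 5.39%, 4.77%, 12.9%, 4.4% and 0.441% of all genes. Single genes changed sign in 6 cases, normexp giving -0.48 for Unc5c with passage in Dunn and -0.061, -0.092, -0.62 and -0.34 for Robo2, Sema4a, Sema4g and Sema7a between the lines, and the unscaled values 0.17 for Neo1. In 28 further cases a call was lost in the same direction, and in 361 it held. The cases that held include those without a condition on background, where no call could be lost, and fits that share most of their arrays. They are no separate tests. Slit3 was called in all 4 comparisons in every setting run, and Sema5a in all but normexp correction. The cause of these changes was not tested. Signals near background limit Robo2, Unc5a, Unc5c, Sema4a, Sema4g and Sema7a, each not well above background on 3 or more arrays of a line.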
